A study of Homo sapiens with 42 samples.

Results

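Chromatin accessibility was compared between MCF10A cells treated for 24 h (24H) with IFNG together with EGF and cells treated for the same time with EGF alone. ATACseq, in which a transposase cuts and tags DNA it can reach, gave 1 list of peaks per library. The comparison holds the 3 libraries labelled IFNG_24 (A to C) and the 4 labelled EGF_24 (A to D), 7 of 42 libraries in the series. MCF10A is an established, non-tumorigenic human mammary epithelial line, so all libraries come from 1 line. In both groups the cells sat on collagen-1 in medium with horse serum, hydrocortisone and cholera toxin but no insulin. EGF was given at 10 ng/ml in both groups and IFNG at 20 ng/ml in the first, so the groups differ by IFNG alone. The study's methods call its replicates biological, while the labels give them only letters. The study removed ATACseq libraries with a low fraction of reads in peaks from its dataset, IFNG + EGF libraries among them. The sources used here do not name them, so all 3 were kept, as were all 42 in the series.

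IFNG, the type II interferon, is secreted mainly by T cells and natural killer cells. Its receptor activates the kinases JAK1 and JAK2, and the signal reaches gamma-activated sites (GAS) in DNA. One of the first genes switched on is IRF1, a transcription factor of the IRF family that binds interferon-stimulated response elements (ISRE). In epithelial cells the response is known for antigen presentation, chemokines that attract T cells, guanylate-binding proteins and antiviral proteins.

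Peaks that overlapped by at least 1 bp on chromosomes 1 to 22 and X were merged over the 7 libraries into 104632 sites, of which 75234 had a peak in at least 2 libraries and were tested. The median width was 513 bp, and 17.2% lay within 1000 bp of a transcription start. The IFNG + EGF libraries listed 75438, 27375 and 43468 peaks (A to C) and the EGF libraries 60180, 43099, 83779 and 100669 (A to D). The geometric mean of IFNG + EGF was 0.655 times that of EGF, and the groups overlapped (exact permutation test, two-sided, p = 0.229). No read counts were used here, so depth is unknown, and a library with fewer peaks misses more sites. To allow for this, detection (1 or 0) was reduced in each library by the rate at which that library detects sites found in the same number of the 42 libraries. Calls of gained and lost sites required an adjusted p (Benjamini-Hochberg) under 0.01 together with a change in adjusted detection of 0.5 or more (limma over all 42 libraries in 13 groups). A missing peak means only that the peak caller's threshold was not reached, not that the DNA was closed.

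IFNG + EGF gained 617 sites and lost 144. Gained sites were 0.82% of all sites tested and lost sites 0.191%. ISRE matches were found in 252 of the gained sites and in 2 of the lost ones. Examples of gained sites with an ISRE match within 100 bp of the summit are shown here. In those printed, the match nearest the summit lay from 2 bp (EID2) to 60 bp (beyond IRF1) from it. The 60 bases around a match are given from the plus strand of hg38, and capitals mark the matches to ISRE (GAAANNGAAA on either strand).
IFIT1 promoter, chr10:89392482-89392541, 2 ISRE: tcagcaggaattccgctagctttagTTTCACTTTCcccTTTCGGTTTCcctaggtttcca
EID2 upstream, chr19:39558014-39558073, ISRE: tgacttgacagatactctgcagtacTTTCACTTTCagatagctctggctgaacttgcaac
AIM2 intron, chr1:159113969-159114028, ISRE: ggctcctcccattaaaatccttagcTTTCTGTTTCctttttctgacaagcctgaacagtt
GBP6 downstream, chr1:89407558-89407617, ISRE: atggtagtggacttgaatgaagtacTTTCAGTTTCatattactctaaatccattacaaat
OASL upstream, chr12:121060213-121060272, ISRE: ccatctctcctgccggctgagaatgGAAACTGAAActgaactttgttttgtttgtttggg
Beyond the 3′ end of IRF1, chr5:132464375-132464434, 2 ISRE: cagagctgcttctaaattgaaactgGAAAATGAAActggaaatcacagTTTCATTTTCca
The IFIT1 window carries both of its ISRE matches within 91 bp of the gene's start, and the window beyond IRF1 carries them in opposite orientations. Each match is a description of the letters, not evidence of a bound factor.

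Of the gained sites, 442 had a peak in all 3 IFNG + EGF libraries and in none of the 4 EGF libraries. They came from 466 sites with that pattern. A further 66 gained sites had a peak in 1 EGF library, 45 in 2, and 64 had a peak in 2 of 3 IFNG + EGF libraries and no EGF library. The opposite pattern, a peak in all 4 EGF and no IFNG + EGF libraries, held 1214 sites, of which 70 were called lost. The libraries differed in how much they detected. IFNG + EGF libraries detected 74.5%, 31.4% and 47.9% of the sites tested and EGF libraries 64.7%, 47.7%, 87.7% and 93.5%. The limma fit to the 7 libraries alone called 0 gained and 0 lost sites, with 3610 sites at an unadjusted p below 0.05. The fit over 42 libraries had 11323. The 7-library fit also takes the subtracted rates from those 7 libraries, and it has 5 residual degrees of freedom against 29. The part of each of these in the drop was not tested. The calls thus depend on the fit over 42 libraries, which takes spread and detection rates from the other 11 groups as well. Those groups include libraries with few peaks, down to 3756, and whether any of them failed the study's quality threshold is not known here. Sites with a peak in only 2 of 42 libraries made up 54 of the gained and 62 of the lost calls. Where a peak in at least 5 of 42 libraries was required, a choice made after seeing these calls, 522 gained and 72 lost sites were called.

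ISRE matches within 100 bp of the summit were found in 40.8% of gained sites, in 3.93% of all 75234 sites and in 1.39% of lost sites. GAS matches (TTCNNNGAA) were found in 16.7%, 7.17% and 4.86% of the same sets. Either match was present in 324 gained sites (52.5%) and both in 31. NF-kB matches (GGGNNNTTCC), sequences read by another inflammatory factor, were found in 7.94% of gained and 3.73% of all sites. AP-1 matches (TGANTCA), the most frequent of the 16 motifs over all sites, were found in 29.8% of gained and 40.8% of all sites. The motif's letters read backwards, used as a control string, were found in 20.9% of gained and 2.55% of all sites for ISRE. Of those 129 gained sites 79 also held the ISRE itself, and the others did not. Why the backward string was more frequent in gained sites was not tested. For GAS the backward string was found in 6.32% of gained and 5.21% of all sites.

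**Figure D1:**
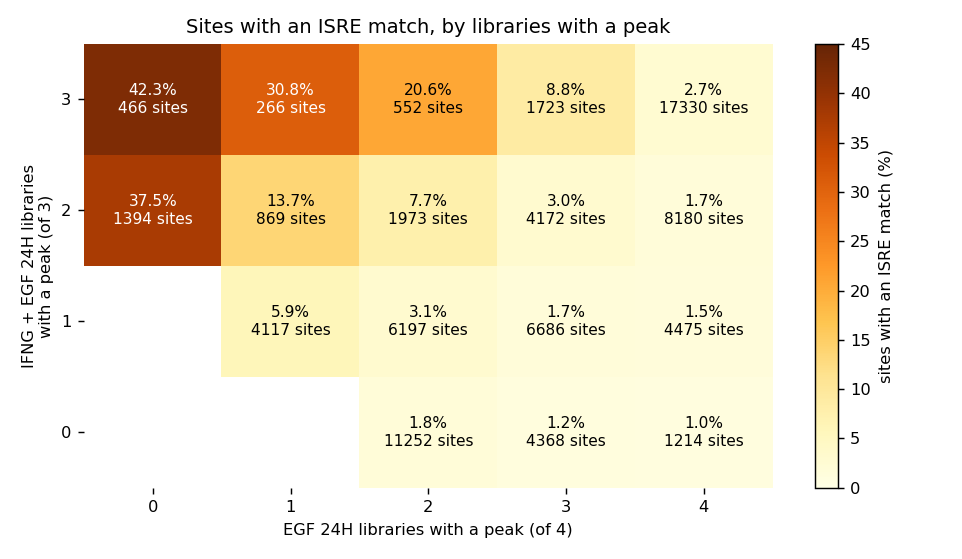
Share of sites with an ISRE match (colour, %) by the number of IFNG + EGF 24H libraries (vertical axis, of 3) and EGF 24H libraries (horizontal axis, of 4) with a peak, with the number of sites in each cell. The share is 42.3% among sites with a peak in all IFNG + EGF and no EGF libraries, 2.7% among sites found in all 7, and 1.0% among sites with the opposite pattern.

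The ISRE lay near the summit in most gained sites that held one. Among the 281 gained sites with an ISRE within 150 bp, the median distance from the summit was 34.5 bp, and 63% had it within 50 bp. Among all 4322 such sites the median was 67.5 bp, and 38.9% had it within 50 bp. Gained sites had a median width of 398 bp, and 39 of them (6.32%) were within 1000 bp of a start. They lay in introns (44.2%) or between genes (52.2%), and 40.4% were more than 50 kb from any protein-coding start. These shares are given without a test.

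The ISRE deviation was computed in every library as the number of detected sites with the motif relative to the number predicted from that library's detection rates, as a percent excess. It was 26.6%, 78.1% and 58.7% in the IFNG + EGF libraries A to C. The EGF libraries A to D had −14.7%, 0.344%, −23.8% and −18.8%. The groups did not overlap, and the means differed by 68.7 percentage points (54.4% ± 26, SD, n = 3, against −14.2% ± 10.4, n = 4; exact permutation test, two-sided, p = 0.0286, the smallest that 3 against 4 allows, adjusted over 16 motifs 0.0914). The ISRE letters read backwards differed by 48.4 points at the same p of 0.0286 (exact permutation). The GAS deviation was 4.65%, 29.3% and 12.5% with IFNG + EGF and −4.84%, 9.73%, −9.54% and −7.16% with EGF. These groups overlapped, because EGF library B lay above IFNG + EGF library A (difference 18.4 points, exact permutation p = 0.0857, adjusted 0.196). Leaving out 1 library gave 11.5 points (without IFNG + EGF library B) to 23.8 (without IFNG + EGF library A). Read backwards, the GAS letters differed by 0.000422 points (exact permutation p = 1).

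The deviation also moved with peak number. TGFB + EGF libraries with few peaks had ISRE deviations of 79.2% and 97.4% at 24H with no IFNG given, against −9.65% in the TGFB + EGF library with the most peaks. The pair of libraries closest in peak number, IFNG + EGF library C with 43468 peaks and EGF library B with 43099, had deviations of 58.7% and 0.344%. Sequencing lanes, as the deposited files name them, gave the same order. On the lane that held IFNG + EGF library B and EGF libraries B and D the difference was 87.3 points, and on the lane of both A libraries it was 41.3 points. The other lanes held 1 group only. A further 4 motifs separated the groups at the same p of 0.0286 (exact permutation, adjusted 0.0914). The difference, IFNG + EGF minus EGF, was 6.89 points for NF-kB, −14.05 for p53/p63 half-sites (CATGNNNNNNCATG), −12.9 for FOX (TGTTTAC) and −6.19 for C/EBP (TTGCNNCAA).

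**Figure D2:**
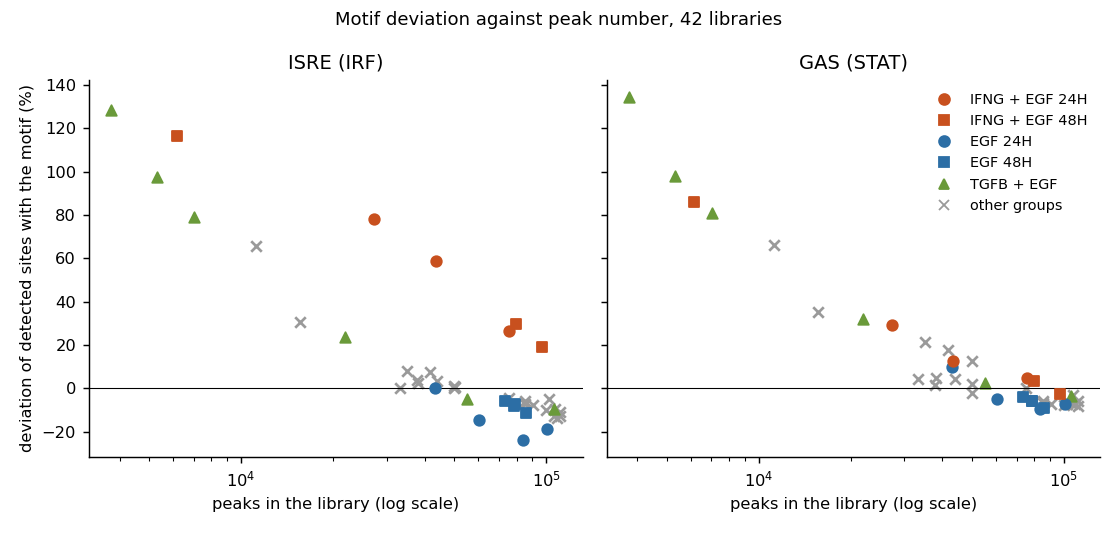
Deviation of detected sites with an ISRE (left) or GAS (right) match (vertical axis, %) against peaks per library (horizontal axis, log scale) for all 42 libraries, with colour and shape marking the group. Deviations are highest in libraries with few peaks; at a like peak number, IFNG + EGF libraries sit above the others for ISRE, whereas for GAS they lie among them.

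By adjusted p, the first 10 gained sites lay nearest to TRDN, TGM2, EID2, GBP5, SLC25A47 (2 sites), IRF1, PPP1R12B, BPNT2 and AIM2. Because detection is 1 or 0, many sites share the same difference and p. Where a site had a peak in all IFNG + EGF and no EGF libraries, or the reverse, detection did not vary within either group. The SE and p of such a site come from the rates subtracted and the spread borrowed from other groups and sites. They do not measure variation between the IFNG + EGF or EGF libraries at that site. The site 177 bp before the start of GBP5 (chr1:89272719-89273140), a guanylate-binding protein that promotes inflammasome assembly, had fold enrichments of 7.44, 5.66 and 5.07 in the IFNG + EGF libraries A to C. Fold enrichment is the deposited ratio of the fragment pileup at the summit to the local background. None of the 4 EGF libraries had a peak there (difference 1.08 ± 0.115, SE, limma adjusted p = 1.22e-06). AIM2, a sensor of cytosolic DNA, had a site 433 bp from its start (chr1:159076640-159077510) with fold enrichments of 13.3, 10.98 and 9.87 and no EGF peak (difference 1.16 ± 0.142, adjusted p = 1.76e-06). It also had the intronic ISRE site printed above, 18342 bp from its start, with 8.61, 6.64 and 8.55.

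The PPP1R12B intronic site with a GAS match had fold enrichments of 14.8, 9.44 and 14.2, and the EID2 site with the printed ISRE had 10.2, 4.70 and 6.41, with no EGF peak at either. The sites nearest TRDN (at −32036 bp from its start) and TGM2 (41978 bp) ranked first and second, with pileups of only 10 to 11 and 10 to 18 fragments. They had a peak in 3 of 42 libraries, all of them IFNG + EGF at 24H. The GBP5, EID2, AIM2 promoter, IRF1 and SLC25A47 sites of this list kept their call in all 18 alternatives other than the fit to the 7 libraries alone. PPP1R12B and BPNT2 lost it where a peak in at least 3 of 7 libraries was required and without IFNG + EGF library B.

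Gained sites at the IRF1 and SLC25A47 genes were wide and low. The 2 sites with summits 9161 and 12260 bp from the IRF1 start (chr5:132480539-132481988 and chr5:132477415-132480321), within an intron of the overlapping gene ENSG00000283782, spanned 1450 and 2907 bp. At the first the pileup was 119, 60 and 90 fragments in the IFNG + EGF libraries, while fold enrichment was only 2.84, 2.97 and 3.08. At the second, pileups of 93, 60 and 73 gave 1.99, 2.74 and 2.35. The local background under both summits was thus high. The median pileup over summits of gained sites was 15 fragments, from 7 to 119. The SLC25A47 sites, 36405 and 38070 bp from WARS1, were of the same kind, with 1311 and 1887 bp and fold enrichments from 2.36 to 3.62.

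In 3 stretches, 3 gained sites followed each other with no more than 50 kb from each to the next. They were the IRF1 stretch, which includes the ISRE pair printed above, the SLC25A47 and WARS1 stretch on chromosome 14, and the APOL1, APOL3 and APOL4 stretch on chromosome 22 (36160566 to 36253306), where all 3 sites held an ISRE. In total 43 gained sites had another within 50 kb. The same count was not made for all sites tested, so whether gained sites cluster more than others was not tested.

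**Figure D3:**
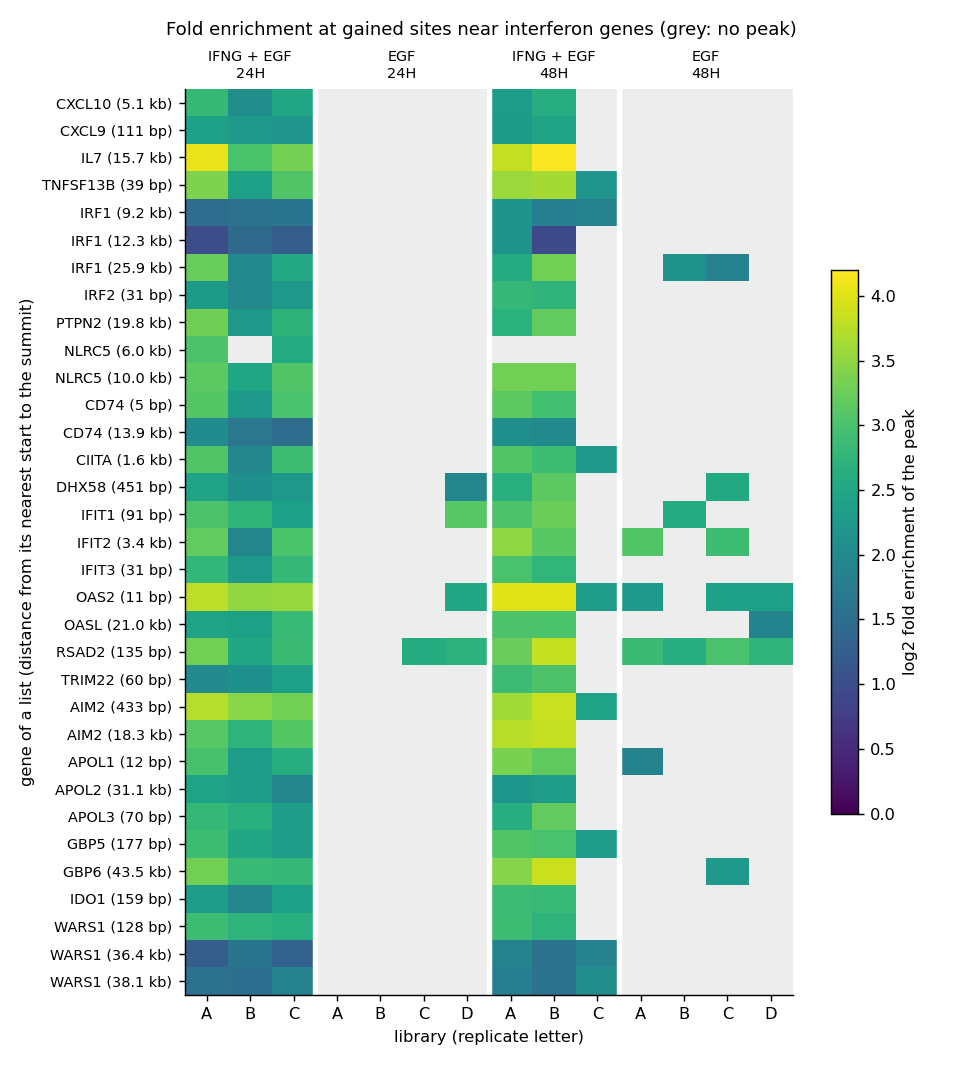
Log2 fold enrichment of the peak (colour; grey, no peak) at gained sites near genes of the interferon lists (rows; distance from the start in brackets) in each library of IFNG + EGF and EGF at 24H and 48H (columns). All IFNG + EGF 24H columns are filled apart from 1 NLRC5 site in library B, EGF columns hold few peaks, and IFNG + EGF 48H library C has few because it detects 5.9% of all sites.

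Genes were also read in 14 lists by their role. Over all 19962 protein-coding genes, 3.40% had a gained and 0.932% a lost site within 50 kb of a start. One site can lie within reach of several genes of a list, which are then counted together.

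Among 20 genes of the IFNG receptor, JAK-STAT and IRF pathway, 3 had a gained site and 0 a lost one. They were IRF1, IRF2, which competes with IRF1 for the ISRE, and PTPN2, a phosphatase that dephosphorylates JAK1. The IRF2 promoter site (31 bp from its start, with an ISRE) had fold enrichments of 4.90, 3.95 and 4.70 and no EGF peak. The PTPN2 site, 19820 bp from its start and with a GAS match, had 9.82, 4.77 and 6.60.

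The promoters of IRF1 and of SOCS1, which encodes a feedback inhibitor of JAK kinases, had a peak in all 7 libraries.

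Chemokine and cytokine genes with a gained site numbered 5 of 20. CXCL9, a CXCR3 ligand that attracts T cells, had one 111 bp from its start (5.27, 4.86 and 4.58; difference 0.81 ± 0.102, limma adjusted p = 1.76e-06). Its neighbours CXCL10 and CXCL11, which act on the same receptor, shared a site in an intron of ART3, 5135 and 7438 bp from their starts, with 7.05, 4.24 and 5.64. At the CXCL10 promoter itself, a summit within 1000 bp was listed in 1 of 3 IFNG + EGF and 0 of 4 EGF libraries. TNFSF13B, the B cell survival factor BAFF, had a site 39 bp from its start with 10.5, 5.24 and 8.35. The site 15711 bp from IL7, a lymphocyte growth factor, had an ISRE and 16.6, 8.09 and 9.96. None of these sites had a peak in any EGF library at 24H.

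Antigen presentation genes were read by class. In MHC class I, 1 of 18 genes had a gained site, namely NLRC5, the transactivator of class I genes, with a site 10006 bp from its start (8.83, 5.59 and 8.30). The B2M and NLRC5 promoters had a peak in all 7 libraries, and the site between the divergent genes TAP1 and PSMB9, which encode a peptide transporter subunit and an immunoproteasome subunit, in 2 of 3 and 2 of 4. In MHC class II, 2 of 12 genes had one. CD74, the invariant chain, had a site 5 bp from its start with 8.56, 4.77 and 7.94 and no EGF peak. CIITA, the master regulator of class II genes, had one 1581 bp from a start with 8.35, 3.84 and 7.42, whereas its promoter peak was present in 3 of 3 and 3 of 4 libraries. The CIITA call held in 10 of 18 alternatives and in 3 of the 7 that leave out a library. Reads from HLA genes can map to several alternate haplotypes, and 2.2 to 2.6% of peaks in the 7 libraries lay off the primary chromosomes and were not used.

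Antiviral genes formed the list with the highest share of genes, 10 of 34 with a gained site, but neighbouring genes shared sites. Counted as sites, 8 of the 129 within 50 kb were gained (6.20%). That was below MHC class II (12.5%), checkpoint and tryptophan genes (8.16%) and the GTPases (7.41%). OAS2, which makes the messenger that activates RNase L, had a site 11 bp from its start with 13.7, 11.4 and 11.8 in IFNG + EGF and 5.64 in EGF library D alone. IFIT3, of the family that binds foreign RNA, had one 31 bp from a start (6.91, 4.81 and 6.96; difference 1.08 ± 0.167, adjusted p = 9.23e-05). TRIM22, a restriction factor, had one with a GAS match 60 bp from its start, in an intron of TRIM5, with 3.99, 4.295 and 5.31. IFIT1 overlapped between the groups, since its promoter site had 8.16, 6.73 and 5.20 in IFNG + EGF and 8.67 in EGF library D. Its call held in 11 of 18 alternatives and in 4 of the 7 that leave out a library, and that of the printed OASL site in 10 of 18 and 3 of 7. RSAD2 (viperin) had a site with peaks in 2 EGF libraries as well, and DHX58 (LGP2), an RNA helicase, one with a peak in EGF library D. The OAS2, IFIT1, RSAD2 and DHX58 sites also had a peak in all 4 CTRL libraries at 0 h. EGF at 48H had a peak in 3 (OAS2), 4 (RSAD2) and 1 (IFIT1 and DHX58) of 4 libraries. The limma adjusted p was 0.00894 for OAS2, 0.00857 for RSAD2 and 0.00906 for DHX58, close to the threshold of 0.01. A lost site lay 16882 bp inside IFIH1, whose product senses viral RNA, with a peak in 0 of 3 and 3 of 4 libraries. That call held in 9 of 18 alternatives.

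Guanylate-binding proteins and related GTPases had 2 of 10 genes with a gained site, GBP5 and GBP6, the latter 43540 bp away with an ISRE (9.94, 7.14 and 6.95). The promoter of GBP1, a well known IFNG target, was not called (10.4, 7.00 and 8.19 against 4 in A, no peak in B, 5.50 and 7.37; difference 0.57 ± 0.302, adjusted p = 0.385). In the list of checkpoint and tryptophan genes, 2 of 12 had one. WARS1, the tryptophanyl-tRNA synthetase, had a site 128 bp from a start with both ISRE and GAS (7.45, 6.66 and 6.18). IDO1, which degrades tryptophan, had one 159 bp from its start with an ISRE (4.99, 3.81 and 5.21). The CD274 (PD-L1) promoter was open in all 7 libraries. Cell death and inflammasome genes had 4 of 22, AIM2 and the apolipoprotein L genes APOL1, APOL2 and APOL3, and complement genes 0 of 15.

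The sites at IRF2, PTPN2, CXCL9, CXCL10, IL7, NLRC5, CD74, WARS1, IDO1 and APOL3 shared 1 pattern, a peak in 5 of 42 libraries, the 3 IFNG + EGF libraries at 24H and 2 at 48H. Those of them followed through the alternatives, all but WARS1, lost their call where 3 of 7 libraries were required and without IFNG + EGF library B.

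Lists outside the interferon response were read the same way. Of 27 immediate-early genes of the EGF and MAPK response 1 had a gained site, 17119 bp from DUSP6, an ERK phosphatase, whose promoter was open in all 7 libraries, as was that of EGR1. Cell cycle genes had 3 of 23, all over 10 kb away, housekeeping genes 1 of 16 with 1 lost (YWHAZ), and mammary epithelial markers 0 of 21. Summits within 1000 bp of epithelial marker starts were listed for 9 to 14 of 21 genes in IFNG + EGF and 12 to 18 in EGF libraries. KRT5 had one in 1 of 3 and 3 of 4, CDH1 in 0 of 3 and 3 of 4, and TP63, KRT19 and ESR1 in none. Of 18 markers of other cell types 1 or 2 had a summit in every library, and PTPRC, which marks leukocytes, had none. One of the 18, CD14, had a gained site 44483 bp away.

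Ranked by adjusted p, the first 10 lost sites lay nearest OCEL1, FGF13, THSD4, RGS8, KATNAL1, LRMDA, AKAP6, TACR3, FSHB and MAP1LC3C, and none of them belonged to a list. The first 2 had a peak in 3 EGF libraries and nowhere else in the series. The other 8 had one in 32 to 34 of 42 libraries, including 2 at 48H with IFNG + EGF. At the RGS8 site, for example, fold enrichments were 10.5, 5.68, 12.8 and 12.6 in the EGF libraries A to D, with no peak in the 3 IFNG + EGF libraries (difference −0.78 ± 0.121, adjusted p = 0.000103). Of all 144 lost sites, 70 (48.6%) had a peak in IFNG + EGF libraries at 48H, against 85.2% of all sites tested. The 62 lost sites with a peak in only 2 of 42 libraries, both EGF at 24H, had none at 48H. Among the 76 lost sites with a peak in at least 5 of 42 libraries, 69 (90.8%) had one in IFNG + EGF at 48H.

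The 48H libraries were read next. The pattern of the 466 sites described above was set by the 24H libraries alone, whereas the gained and lost calls also used peaks at 48H in the detection rates and in the spread. Of the 466 sites with a peak in all IFNG + EGF and no EGF libraries at 24H, IFNG + EGF libraries A and B at 48H detected 89.9% and 94.2%, against 72.6% and 81.0% of all sites tested. Library C, with few peaks, detected 4.51% of them and 5.92% of all. EGF libraries at 48H detected 4.94 to 6.87% of the 466 sites and 71.4 to 80.9% of all. In CTRL libraries, taken at 0 h, 13.1 to 16.7% of the 466 sites had a peak, against 88.05 to 91.2% of all sites tested. A total of 236 of the 466 had no peak in any library without IFNG, against 922 of all 75234 sites tested. The 466 were chosen for having no peak in the EGF libraries at 24H. Of the 1214 sites with the opposite pattern, the 3 IFNG + EGF libraries at 48H detected 57.99%, 69.4% and 0.0824%, and the EGF libraries 85.3 to 92.8%.

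At 48H the ISRE deviation was 29.7%, 19.1% and 116% in IFNG + EGF and −11.2 to −5.73% in EGF libraries (difference 63.2 points, exact permutation p = 0.0286, adjusted 0.0653). Library C, with the highest value, had 6156 peaks, and without it the difference was 32.5 points (exact permutation p = 0.0667, the smallest that 2 against 4 allows). TGFB + EGF library B and OSM library B, also with few peaks at 48H (3756 and 11188), had 128% and 65.8% with no IFNG given. The limma interaction term, 48H against 24H, called 2 sites (0.00266% of those tested, with 5376 at an unadjusted p below 0.05). They were the TRDN and TGM2 sites (difference −1.01 ± 0.121, limma adjusted p = 8.13e-05 each). Both had a peak in the 3 IFNG + EGF libraries at 24H and nowhere else, so detection did not vary within any group. Their shared p follows from that pattern and from the spread borrowed from other sites. It does not measure variation between libraries at these sites. Without IFNG + EGF library B at 24H the number was 83, without 24H library C 16, without 48H libraries A, B and C 0, 20 and 4, and without EGF library B at 24H 5.

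Sites open in all 7 libraries can still differ in height. Over 17330 such sites, log2 fold enrichment, quantile normalized, was higher with IFNG + EGF at 61 (0.352%) and lower at 60 (0.346%) at an adjusted p below 0.05 (limma on the 7 libraries). An ISRE was found in 14 of the higher sites (22.95%), 0 of the lower ones and 2.75% of all. The 5 higher sites with the lowest p lay nearest SMIM20, SLC44A1, BBC3, KCTD12 and ZNF608, and the 5 lower ones nearest FST, P3H2, DUSP10, SPATA31A6 and EXT1. At SLC44A1, a choline transporter, the intronic ISRE site had 16.4, 11.4 and 13.7 in IFNG + EGF and 4.50, 5.87, 9.30 and 10.2 in EGF. The groups did not overlap (log2 difference 1.26 ± 0.183, SE, adjusted p = 0.00148). The promoter of BBC3, the pro-apoptotic protein PUMA, had 9.03, 6.46 and 9.03 against 3.14, 3.79, 5.56 and 3.66 (1.29 ± 0.197, adjusted p = 0.00242).

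Among list genes, the IFIH1 promoter was also higher. It had 14.3, 9.38 and 10.2 against 9.21, 5.86, 8.16 and 11.6 (0.75 ± 0.171, adjusted p = 0.0325), and it held an ISRE. The CD274 promoter had 12.8, 6.76 and 9.43 against 8.19, 5.26, 11.8 and 7.10 and did not pass the test (0.64 ± 0.188, adjusted p = 0.109). Among lower sites, the one at −137209 bp from FST, which encodes the activin inhibitor follistatin, had 8.501, 3.81 and 4.93 against 14.9, 11.2, 15.7 and 17.8 (−1.13 ± 0.174, adjusted p = 0.00242). The site at −103996 bp from DUSP10, a phosphatase of p38 and JNK, had 4.05, 3.37 and 3.87 against 8.85, 6.33, 11.8 and 11.6, so that every EGF library lay above every IFNG + EGF library. Without normalization the numbers were 2 and 7, and with summed fold enrichment per site 0 and 0 (1625 at an unadjusted p below 0.05).

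Fold enrichment is relative, since MACS2 without a control library takes the background from the surroundings of the peak. Pileup and local background were therefore worked back from the deposited fold enrichment and p of each summit, which succeeded in all 7 libraries at 17298 of the 17330 sites. Both comparisons were chosen after seeing the data. Pileup was higher with IFNG + EGF at 283 sites (1.64%) and lower at 180 (1.04%). Local background was higher at 316 (1.83%) and lower at 276 (1.60%), with 4123 at an unadjusted p below 0.05. Calls on local background fell to 26 and 4 without IFNG + EGF library C and reached 854 and 607 without EGF library B, and without normalization they were 0 and 0.

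Fold enrichment and background gave different pictures at several interferon genes. The IRF1 promoter had a pileup of 103, 36 and 62 fragments over a background of 13.4, 7.04 and 10.0 in IFNG + EGF, and of 66, 34, 115 and 132 over 5.93, 3.51, 7.44 and 10.2 in EGF. Fold enrichment was 7.24, 4.60 and 5.73 against 9.67, 7.77, 13.7 and 11.8, so every IFNG + EGF value lay below every EGF value (log2 difference −0.51 ± 0.175, adjusted p = 0.185). Relative to each library's median, the background was 5.08, 4.03 and 5.12 against 2.52, 1.78, 2.33 and 2.18 (log2 difference 1.21 ± 0.108, limma adjusted p = 0.000172).

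The CD74 intronic site, 2798 bp from its start, was lower in fold enrichment and higher in background. Its fold enrichment was 4.46, 4.45 and 3.09 against 9.18, 6.88, 14.3 and 14.2 (log2 difference −1.14, adjusted p = 0.00829, called lower), its pileup did not pass the test (0.13, adjusted p = 0.771), and its background relative to the median was 4.22, 3.94 and 4.63 against 1.94, 1.63, 1.39 and 1.45 (1.48 ± 0.123, adjusted p = 0.000105). At the WARS1 promoter the background was higher too (0.95 ± 0.102, limma adjusted p = 0.000559). Gained sites lay close to both, at chr5:150412611-150413406 (CD74) and chr14:100375251-100375826 (WARS1). Since background is taken from the surroundings, fragments of these gained sites may count in it, and their part was not tested.

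**Figure D4:**
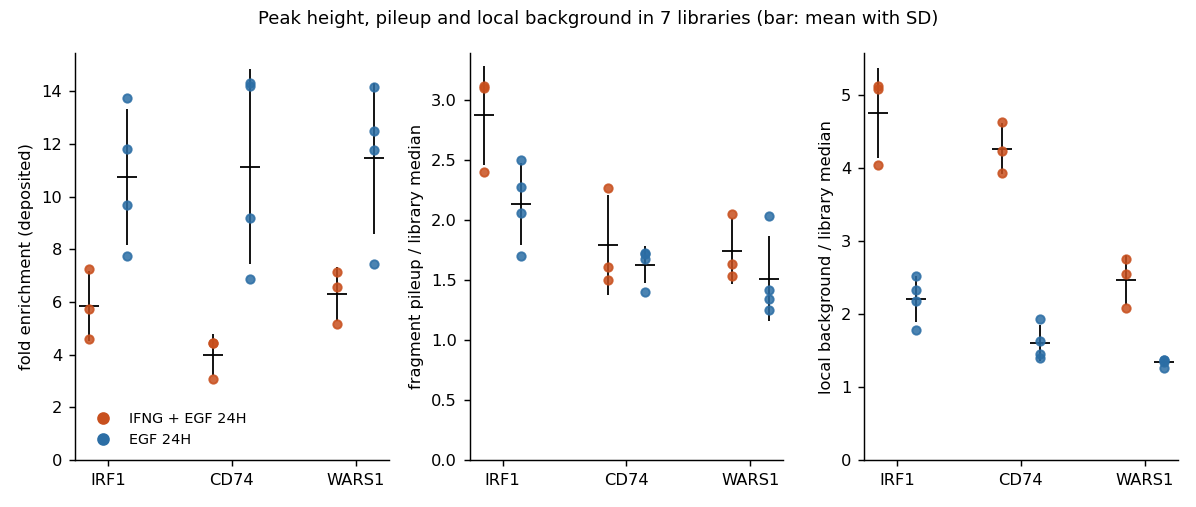
Fold enrichment (left), fragment pileup over the library median (middle) and local background over the library median (right) at the IRF1 and WARS1 promoters and the CD74 intronic site, 1 point per library, bars giving mean and SD (n = 3 and 4). Background is higher in every IFNG + EGF library than in any EGF library at all 3 sites, while mean fold enrichment is lower.

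Of the JAK-STAT and IRF list, 8 of 48 sites were higher in background and 0 lower, and 3 were higher in pileup. Antiviral genes had 5 of 26 higher in background, among them the site at −4027 bp from SP100, a nuclear body protein (0.85 ± 0.102, adjusted p = 0.00132). SOCS1 had its promoter called (0.64 ± 0.105, adjusted p = 0.00843). The site at −1820 bp from GBP5 had the lowest p of all, with pileups of 49, 27 and 39 against 9, 8, 11 and 28 and backgrounds near the lowest value of the library in EGF (1.93 ± 0.121, adjusted p = 5.32e-06). The gained GBP5 site (chr1:89272719-89273140) lay close to it, and its part in that background was not tested. In the other interferon lists 2 of 4 sites of the GTPases were higher in background, 3 of 24 of chemokines and cytokines, 2 of 17 of MHC class I, 2 of 8 of MHC class II, 2 of 12 of checkpoint and tryptophan genes, 2 of 32 of cell death genes and 2 of 19 of complement genes, with 0 lower in each, beside 1.83% higher over all sites. Immediate-early genes of the EGF and MAPK response had 1 higher and 1 lower of 68 sites, mammary epithelial markers 0 higher and 2 lower of 49, and cell cycle and housekeeping genes 0.

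**Figure D5:**
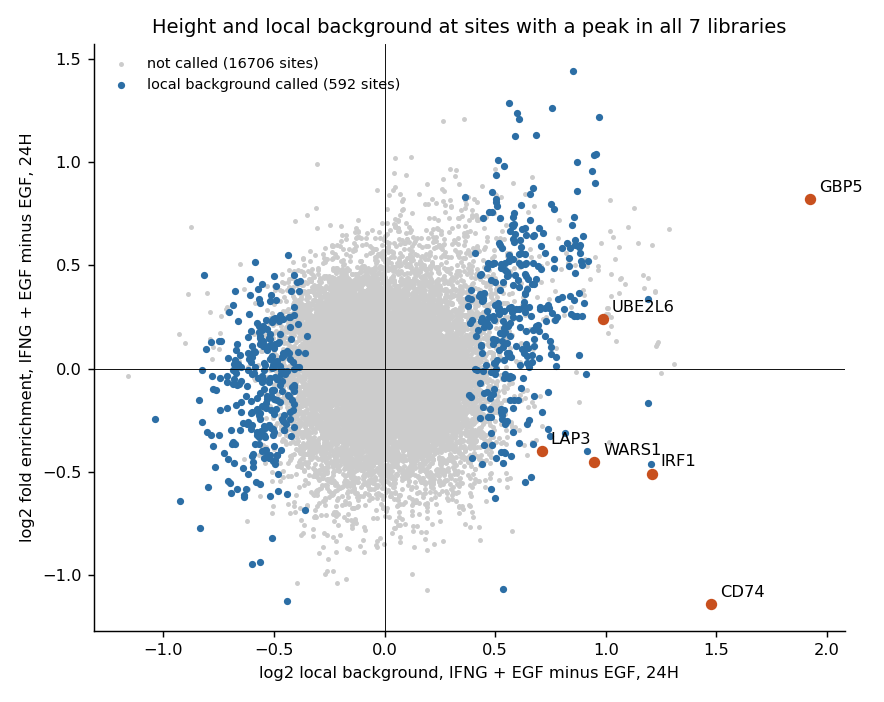
Log2 difference in fold enrichment (vertical axis) against log2 difference in local background (horizontal axis), IFNG + EGF minus EGF at 24H, at sites with a peak in all 7 libraries; blue marks the 592 sites called in background, and orange marks named interferon genes. The named sites lie to the right, with GBP5 and UBE2L6 above zero in fold enrichment and IRF1, CD74, WARS1 and LAP3 below it.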

How the data were processed

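ATACseq reads were trimmed by the authors with Trimmomatic 0.36.5, aligned to hg38 with Bowtie2 2.3.4.1, cleared of mitochondrial and duplicate alignments (Picard), and peaks were called per library with MACS2 2.1.1.20160309.5 (paired-end mode, q 0.01) without a control library. Fold enrichment at each summit is deposited as a ratio. The deposited −log10 p and q values (neg_log10_p) and the score, which is made from q, come from MACS2. Positions are deposited in bp. Depth is unknown, so no counting intervals are given. The study removed ATACseq libraries with a low fraction of reads in peaks before building its accessibility data, IFNG + EGF libraries among them. Which these were is not given in the sources used here, and all 42 libraries were used.

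Peaks were merged, annotated to the nearest start of 19962 protein-coding genes (GENCODE release 44), and tested with limma 3.58.1 in R 4.3.3 (Python 3.11.15, numpy 2.4.6 and pandas 2.3.3 for the rest). Detection was fitted over 42 libraries in 13 groups (29 residual degrees of freedom), heights over the 7 libraries. Site-wide steps were tested on simulated data. Library values were compared by exact permutation of 35 labelings. Pileup was solved from fold enrichment and p with a tolerance of 0.001. Motifs were searched on both strands within 100 bp of the summit. Sequences come from the hg38 reference.

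Named sites were the 10 gained and 10 lost with the lowest adjusted p, the 5 higher and 5 lower heights, at most 6 genes per list by p and distance, and 17 well-known genes, some of which are not reported here; OAS2, RSAD2, DHX58, the IFIH1 promoter height and the sites named for pileup and background, were singled out after their values were seen. The members and lists were chosen with earlier results of these data known. Alternatives changed the filter, adjustment, peak threshold, merging, normalization, lane, weights, the replicate block and single libraries.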

Additional observations from a re-analysis of the deposited data

Results flagged for a closer look

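In motif deviation, EGF library B at 24H stood apart from the 3 other EGF libraries for AP-1 (7.43% against 2.27 to 2.68%) and for NRF1 (−7.45% against −0.003 to 1.17%). These were the 2 groups past Dixon's 95% critical value, of 26 groups of 4 checked, and chance flags about 1 in 20. EGF library B also had the fewest peaks of its group, and the part of peak number in these values was not tested. The difference between 48H and 24H in adjusted detection was −1.01 at the TRDN site and −1.01 at the TGM2 site, by the interaction term of the limma fit. Each had a peak in the 3 IFNG + EGF libraries of 24H and nowhere else in the series.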

How the results depend on the processing

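The calls depend on how detection is adjusted, and the cause of each shift was not tested unless stated. Gained and lost sites numbered 617 and 144. They were 0 and 0 in the 7 libraries alone, 397 and 58 with raw detection, 1133 and 402 with log10 peak number as a covariate, 1130 and 75 with no filter, 109 and 67 with a peak in at least 3 of 7, 1043 and 396 with array weights, and 1516 and 1071 at an adjusted p below 0.05. The stricter filter changes the rates subtracted by its construction: among sites found in 5 of 42 libraries, the mean IFNG + EGF rate was 91.8% under it and 43.4% under the main filter. Lost sites numbered 425 in the 25000 strongest peaks, 66 with a −log10 q of at least 5, and 72 with a peak in at least 5 of 42. Leaving out a library gave 524 to 771 gained, 71 to 663 lost (663 without IFNG + EGF library B, 71 without EGF library C), and 0 to 83 sites differing between times. Higher and lower heights (61 and 60) were 95 and 51 with median centring, 2 and 7 without normalization, 0 and 0 when summed, 97 and 36 with a peak in at least 2 libraries of each group, 283 and 180 for pileup, and 14 to 120 and 13 to 96 leaving out a library (14 and 14 without IFNG + EGF library C, 120 and 96 without EGF library B). Local background (316 and 276) was 225 and 167 with median centring, 0 and 0 without normalization, 232 and 184 above the lowest background of each library, and 26 to 854 and 4 to 607 leaving out a library. The ISRE difference, of motif deviation, ISRE (IRF), was 56.9 to 82.6 points leaving out a library, with exact permutation p of 0.0667 or 0.1, the smallest these designs allow. Peak number gave −0.297 to −0.0771 (log10) and promoter share 2.22 to 6.26 points. List genes with a gained site numbered 16 within 1000 bp and 22 within 10 kb, and with a lost site 0 and 0. Over all protein-coding genes the shares at these distances were 0.2004% and 0.7765% for gained sites. For lost sites they were 0.0451% and 0.2204%. Read backwards, 8 of 16 motifs changed sign. Those with a p of 0.0286 forwards gave 18.9 (p53/p63), 5.52 (C/EBP), −0.486 (NF-kB) and 0.982 points (FOX), the first pair again at an exact permutation p of 0.0286. The others were AP-1, CRE, ETS and NF-Y. Samples with the same letter did not deviate together (correlations 0.037 for A, −0.004 for B and 0.045 for C). With the replicate block, 596 gained and 138 lost sites, 47 higher and 25 lower heights, and 327 and 203 background sites were called. The ISRE difference, blocked by letter, was 67.2 points (exact permutation of signs over pairs A to C, p = 0.25). EGF library D has no pair and was left out, and 0.25 is the smallest p that 3 pairs allow.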
